A study of Mus musculus with 2 samples.

Results

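The globins and red cell genes were a set of 10 genes, matched by name and chosen with earlier results of these data known. They were the alpha-type globins Hba-a1, Hba-a2 and Hba-x, the beta-type globins Hbb-bs, Hbb-bt, Hbb-bh1 and Hbb-y, and Alas2, Ahsp and Slc4a1. Of these, 9 were matched among the 55418 gene symbols of the deposited gene table, and Ahsp was not analysed here. The samples were adrenal glands of female mice aged 14 days, of the F1 hybrid strain B6CASTF1/J, from which 300 ng of total RNA per library was depleted of ribosomal RNA, mixed with ERCC spike-ins (synthetic RNAs) and sequenced with a directional kit. The 2 libraries, replicate 2 and replicate 1, form a single group with no treatment and no control. They carry 1 donor identifier and a library description of pooled females, whereas for replicate 2 the label of the tissue gives 1 numbered female, so whether they come from separate animals was not settled. All tests below therefore compare these libraries only, and their intervals cover counting error.

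Expected counts (reads divided among the genes they fit) summed to 33844950 in replicate 2 and 37586172 in replicate 1. Levels are in TPM, a share of all transcripts on a fixed total, which corrects for transcript length. Adrenal cortex markers were high in both libraries, at a summed 3730 TPM in replicate 2, against 8622 TPM in replicate 1. The libraries also differed in markers of other tissues. The 7 liver markers summed to 18136 TPM in replicate 2, against 312 TPM in replicate 1, and the 11 T cell markers to 2.30 TPM in replicate 2, against 54.6 TPM in replicate 1.

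Hemoglobin is a tetramer of alpha-type and beta-type globin chains, each holding a heme group. Red cell precursors in the mouse make embryonic chains (Hba-x, Hbb-bh1 and Hbb-y) in the yolk sac and adult chains (Hba-a1, Hba-a2, Hbb-bs and Hbb-bt) from fetal liver and bone marrow. Alas2 is the erythroid form of the first enzyme of heme synthesis, Slc4a1 encodes band 3, the anion exchanger of the red cell membrane, and Ahsp binds free alpha chains. Immature red cells (reticulocytes) lose the nucleus but keep globin RNA for a time in the circulation.

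The adult globins come as near-identical pairs, which limits how well any read can be assigned to 1 copy. In the GENCODE M21 transcripts, the coding sequences of Hba-a2 and Hba-a1 have 429 bases each and differ at 1. Those of Hbb-bt and Hbb-bs have 444 bases each and also differ at 1. The stretches of 61 bases around these differences are printed because only reads that reach such a base, or the untranslated ends, tell the copies apart. The capital marks the base that differs, and positions are counted from 1 at the A of the start codon.
Hba-a2: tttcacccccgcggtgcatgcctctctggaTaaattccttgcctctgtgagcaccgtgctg
Hba-a1: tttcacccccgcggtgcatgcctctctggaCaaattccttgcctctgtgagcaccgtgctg
Hbb-bt: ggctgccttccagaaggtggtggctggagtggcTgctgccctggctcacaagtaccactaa
Hbb-bs: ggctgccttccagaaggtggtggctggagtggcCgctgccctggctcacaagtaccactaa

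The alpha difference is C381T, from Hba-a1 to Hba-a2, in codon 127. The beta difference is C417T, from Hbb-bs to Hbb-bt, in codon 139. Both lie in exon 3 and at the last base of a codon that encodes the same amino acid in either copy. Over whole transcripts, 91.0% of the 31-base words of the main Hba-a2 transcript occur in that of Hba-a1. For Hbb-bt in Hbb-bs the share is 59.4%. In the other direction it is 71.3% for Hba-a1 in Hba-a2 and 66.9% for Hbb-bs in Hbb-bt. The beta copies thus share fewer words in both directions, but only slightly fewer in the second. No 31-base word of the main Hba-x, Hbb-y or Hbb-bh1 transcript occurs in the adult transcript of the same type, and their coding identity to it is 64.9% (Hba-x), 74.3% (Hbb-y) and 74.6% (Hbb-bh1).

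Promoters are printed because the adult globins had similar differences between the libraries while Hbb-y was at 0. RefSeq (GRCm38.p6) gave a promoter for 7 of the 10 genes. The 250 bases before each start were searched on both strands for GATAA (the core of sites for GATA factors such as GATA1), CACCC (bound by KLF factors), CCAAT (bound by NF-Y) and, for the TATA box, the letters ATATAA. The 210 bases before the start are printed 5′ to 3′ on the strand of the gene, with matches in capitals, for Hba-a2 (chr11:32296282-32296491, plus strand), Hbb-bs (chr7:103827929-103828138, minus strand) and Hbb-y (chr7:103853208-103853417, minus strand). Starts are those of RefSeq. The main transcript in GENCODE M21 begins 3 bases further upstream for Hba-a2, 9 for Hbb-y and 0 for Hbb-bs. For the genes not printed it begins 161 bases further upstream for Hba-a1, 73 for Hbb-bt, 200 for Hba-x and 42 for Alas2. The motif positions therefore hold for the RefSeq starts only.
Hba-a2: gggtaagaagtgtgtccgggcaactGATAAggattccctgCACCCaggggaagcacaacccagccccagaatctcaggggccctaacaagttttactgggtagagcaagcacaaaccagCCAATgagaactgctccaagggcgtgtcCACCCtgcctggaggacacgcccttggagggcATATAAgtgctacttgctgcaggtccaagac
Hbb-bs: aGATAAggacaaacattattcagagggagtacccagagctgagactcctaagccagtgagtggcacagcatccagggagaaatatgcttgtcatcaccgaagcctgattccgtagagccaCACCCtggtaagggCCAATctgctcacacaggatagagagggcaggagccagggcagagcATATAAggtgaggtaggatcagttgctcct
Hbb-y: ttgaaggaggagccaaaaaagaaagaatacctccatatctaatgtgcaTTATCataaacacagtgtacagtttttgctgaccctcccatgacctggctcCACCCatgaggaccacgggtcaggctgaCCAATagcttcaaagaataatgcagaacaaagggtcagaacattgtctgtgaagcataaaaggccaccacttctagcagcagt

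All 4 motifs were found before the RefSeq start of each of the 4 adult globin genes. All 4 together were found in 153 of 32851 RefSeq promoters of the same length (0.466%). Single motifs were common, at 22.6% of promoters for GATAA, 52.0% for CACCC, 33.9% for CCAAT and 9.10% for ATATAA. Hbb-y lacked only the ATATAA letters, Hba-x lacked only CCAAT, and Alas2 held only the motifs of the GATA and KLF factors. The promoters of Hba-a2 and Hba-a1 share a run of 247 identical bases, and those of Hbb-bt and Hbb-bs a longest run of 14. When the windows of 250 bases were aligned, 178 positions were identical between Hbb-bt and Hbb-bs. For Hba-a2 and Hba-a1 it was 247. In Hbb-bt a reverse and a forward CCAAT lie next to each other without sharing a base. A match describes the letters in these windows and not a bound site.

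Among alpha-type globins, both adult genes were abundant. Hba-a1 (chr11:32283511-32284465, plus strand) had 901 TPM in replicate 2, against 2904 TPM in replicate 1, from 16941 and 56458 expected counts. Hba-a2 (chr11:32296489-32297298, plus strand) had 827 TPM in replicate 2, against 2571 TPM in replicate 1, from 12401 and 40464 expected counts. Both were lower in replicate 2, where they ranked 26 and 31 among protein-coding genes by TPM, against ranks 13 and 15 in replicate 1. Together the alpha pair averaged 3601 ± 2650 TPM (SD, n = 2).

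Among beta-type globins, 1 gene of the adult pair led. Hbb-bs (chr7:103826534-103828096, minus strand) had 875 TPM in replicate 2, against 2960 TPM in replicate 1, from 15208 and 54070 expected counts. Hbb-bt (chr7:103812524-103813996, minus strand) had 112 TPM in replicate 2, against 297 TPM in replicate 1, from 2239 and 6211 expected counts. Hbb-bs was thus 7.78-fold above Hbb-bt in replicate 2 and 9.96-fold in replicate 1. The beta pair averaged 2122 ± 1605 TPM (SD, n = 2), and the 4 adult globins together had 2715 TPM in replicate 2, against 8732 TPM in replicate 1, or 0.138% and 0.418% of all expected counts.

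The ratio of adult alpha to adult beta globin RNA varied little, although both pairs were lower in replicate 2. The alpha pair exceeded the beta pair 1.75-fold in replicate 2 and 1.68-fold in replicate 1 by TPM (log2 0.78 ± 0.04, SD, n = 2). By expected counts it was 1.68-fold in replicate 2 and 1.61-fold in replicate 1. With 2 libraries no exact test of a ratio can reach 0.05, so none was made.

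**Figure D1:**
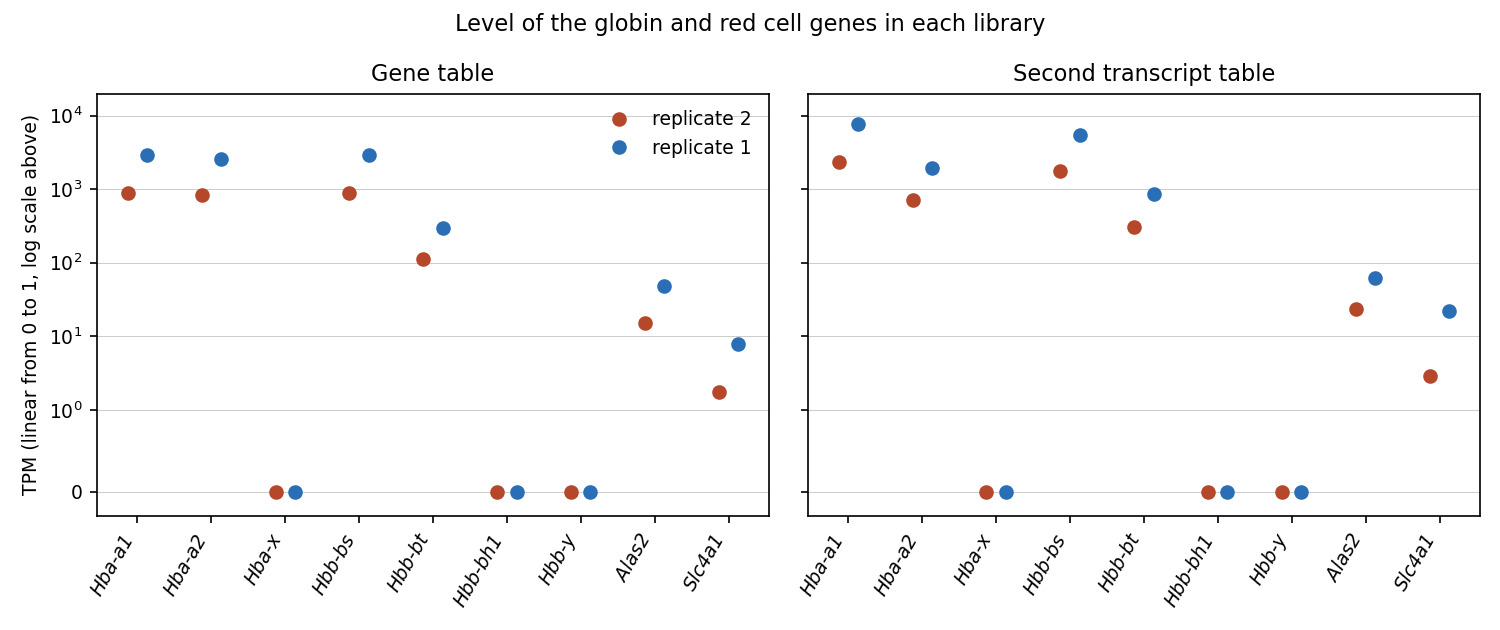
Level of each matched gene in TPM (vertical axis, linear from 0 to 1 and logarithmic above) in replicate 2 (left point of each pair) and replicate 1 (right point), from the deposited gene table and from the second transcript table summed to genes. In both panels Hba-x, Hbb-bh1 and Hbb-y lie at 0 in both libraries, and every other gene lies lower in replicate 2.

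The 3 embryonic globins were not detected. Hba-x (chr11:32276400-32278116, plus strand), Hbb-bh1 (chr7:103841637-103843164, minus strand) and Hbb-y (chr7:103851749-103853216, minus strand) had 0 counts in replicate 2 and 0 counts in replicate 1, in the gene table and in both transcript tables. At these depths 0 counts still allow up to 3 counts, which is 8.86e-06% of the counts of replicate 2 and 7.98e-06% of those of replicate 1. The least abundant adult gene of the same clusters, Hbb-bt, had 2239 counts in replicate 2 and 6211 in replicate 1. The beta-type gene Hbb-bh2 and the pseudogenes Hbb-bh0 and Hbb-bh3 were also at 0 counts in both libraries.

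How the alpha reads were split between the copies depended on the table. The deposited series holds a gene table with its transcript table, and a second transcript table made by another procedure from the same reads. Summed over the pair, the alpha counts were close, at 29342 expected counts in the gene table and 29062 estimated counts in the second table for replicate 2, and 96922 and 105500 for replicate 1. The share given to Hba-a2 was 42.3% in replicate 2 and 41.7% in replicate 1 in the gene table, against 16.2% and 14.2% in the second table.

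By gene, Hba-a2 had 12401 counts in the gene table and 4700 in the second table for replicate 2, a gap of 7701 counts. The authors' posterior standard deviation of that count, which covers assignment within their own model, was 147 counts. The gap between the tables was thus far larger than the error stated within the first of them. By TPM, Hba-a1 exceeded Hba-a2 1.09-fold in replicate 2 and 1.13-fold in replicate 1 in the gene table, but 3.21-fold and 3.98-fold in the second table. The order of the 2 genes was the same in both tables and its size was not, so the level of either alpha copy alone is uncertain.

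The beta copies were split more alike. Hbb-bt took 12.8% of the pair's counts in replicate 2 and 10.3% in replicate 1 in the gene table, and 18.5% and 16.3% in the second table. Hbb-bs exceeded Hbb-bt 5.78-fold in replicate 2 and 6.30-fold in replicate 1 by TPM in the second table. Hbb-bs led Hbb-bt in both libraries and both tables.

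**Figure D2:**
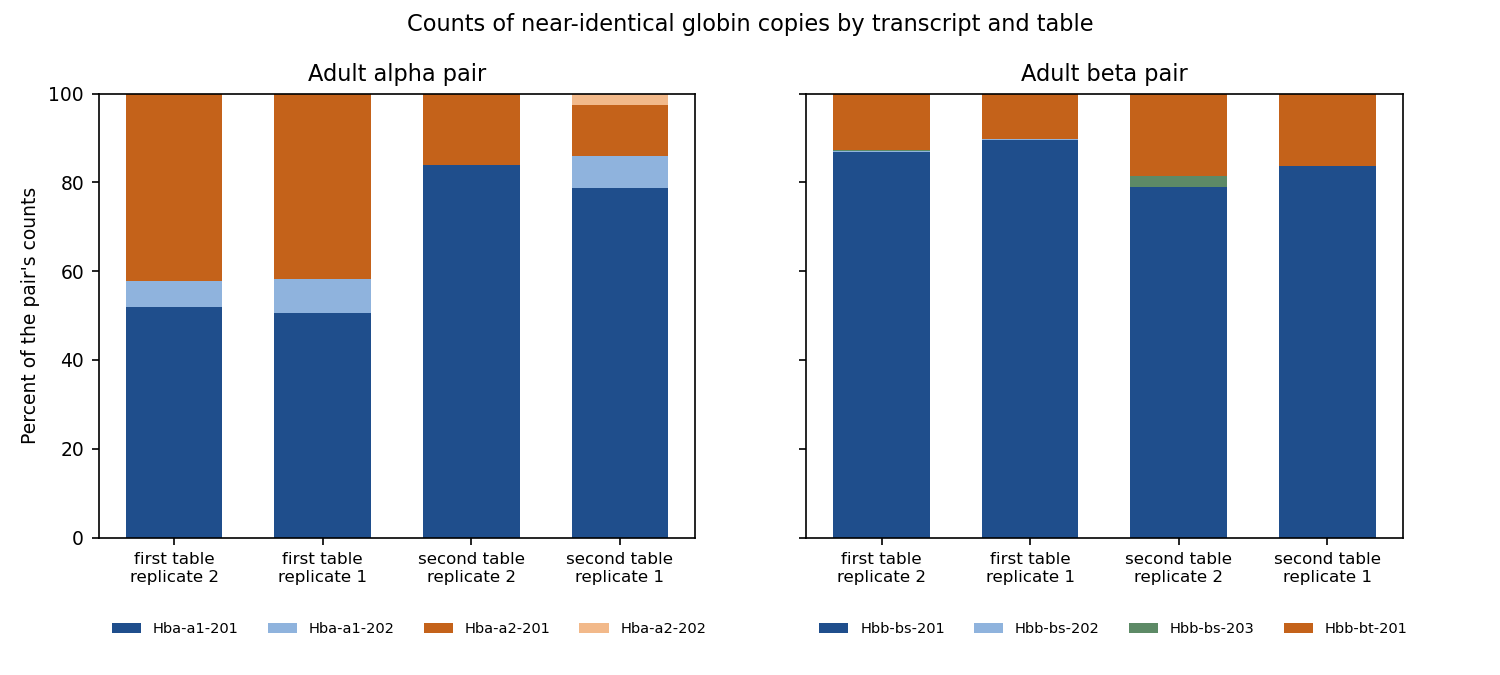
Percent of the counts of the adult alpha pair (left) and the adult beta pair (right) given to each transcript, for replicate 2 and replicate 1 in the first and second transcript tables. The lowest-numbered transcript of each gene is its main coding one. That of Hba-a2 takes 42.3% and 41.7% in the first table but 16.2% and 11.6% in the second, while that of Hbb-bs takes at least 78.9% in all 4 bars.

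Transcripts that retain an intron took part of the alpha counts, again depending on the table. The transcript of Hba-a1 annotated as a retained intron, of 494 bases, had 14.4% of the TPM of Hba-a1 in replicate 2 and 18.6% in replicate 1 in the first transcript table. In the second table it had 0% in replicate 2 and 15.8% in replicate 1. Its twin at Hba-a2 was at 0% in both libraries in the first table, and at 0% in replicate 2 and 22.4% in replicate 1 in the second. Of the 31-base words of the Hba-a1 form, 93.3% occur in the Hba-a2 form and 76.1% in the spliced Hba-a1 transcript. A short coding transcript of Hbb-bs (407 bases) had 0.10% of that gene's TPM in replicate 2 and 0.09% in replicate 1 in the first table, against 8.30% and 0% in the second.

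The absolute globin TPM also depended on the table. The 4 adult globins together were 1.89-fold higher in the second table than in the gene table for replicate 2 and 1.83-fold for replicate 1, while their counts were 1.00-fold and 1.10-fold as high. The effective length, the number of positions from which a read can start, was 600 bases for the main Hba-a1 transcript in the first table in both libraries. It was 378 bases in replicate 2 and 399 bases in replicate 1 in the second table. For Hba-a2 it was 455 bases in the first table, and 234 bases in replicate 2 and 254 bases in replicate 1 in the second.

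Alas2 (chrX:150547375-150570638, plus strand) had 15.2 TPM in replicate 2, against 47.6 TPM in replicate 1, from 824 and 2836 expected counts. The adult globins together exceeded it 179-fold in replicate 2 and 183-fold in replicate 1 in the gene table, and 218-fold and 257-fold in the second table. That ratio differed far less between the libraries than either level did. The full-length coding transcript of 2037 bases had 54.2% of the gene's TPM in replicate 2 and 57.4% in replicate 1, and the second coding transcript, of 1892 bases, had 28.9% and 30.9% in the first transcript table. In the second table these shares were 40.9% and 49.2% for the full-length transcript, and 31.6% and 40.2% for the other.

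Slc4a1 (chr11:102348824-102366203, minus strand) was the scarcest detected member, with 1.75 TPM in replicate 2, against 7.97 TPM in replicate 1, from 203 and 1144 expected counts. The adult globins exceeded it 1551-fold in replicate 2 and 1096-fold in replicate 1 in the gene table, and 1757-fold and 727-fold in the second table. The mean level of Slc4a1 was 12.5 TPM in the second table, against 4.86 TPM in the gene table. Its full-length coding transcript, of 4545 bases, held 77.7% of the gene's TPM in replicate 2 and 92.95% in replicate 1 in the first transcript table, but 63.4% and 44.0% in the second, where replicate 2 has the higher share. In order of mean TPM, Hbb-bs (1917 ± 1475), Hba-a1 (1903 ± 1417) and Hba-a2 (1699 ± 1233, SD, n = 2 for each value here) lay within their spread of each other, followed by Hbb-bt (205 ± 131), Alas2 (31.4 ± 23.0) and Slc4a1 (4.86 ± 4.4). In each library those 3 leading genes lay above Hbb-bt, Hbb-bt above Alas2 and Alas2 above Slc4a1.

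Every detected member was lower in replicate 2 after the libraries were scaled to each other by TMM, which sets the typical gene to no difference. Hba-a1 was 2.37-fold lower in replicate 2 (95% interval 2.33 to 2.41), Hba-a2 2.32-fold (2.28 to 2.37) and Hbb-bs 2.53-fold (2.49 to 2.58). Hbb-bt was 1.97-fold lower (1.88 to 2.07), Alas2 2.45-fold (2.27 to 2.65) and Slc4a1 4.01-fold (3.45 to 4.68). All 6 members whose counts averaged at least 20 were called lower, with a largest adjusted p of 6.20e-97 by the exact conditional binomial test with Benjamini-Hochberg adjustment over 16135 genes, and 24.6% of all genes tested were called lower by the same rule. By a fold over 2, 5 of the 6 were lower, against 2.58% of all genes tested. The 6 had a median log2 difference of -1.27 (range -2.00 to -0.98), beside a median of -0.00 over all genes tested, and the 3 embryonic globins at 0 counts gave no difference. Scaling by spike-ins shifts every log2 difference by -0.28 and scaling by total counts by -0.34, which moves the members further down.

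In bulk tissue, fewer red cells and less RNA per red cell cannot be told apart. Liver markers were higher and T cell markers lower in replicate 2 in the same comparison. Both lists of adrenal cells were also called lower, in 8 of 8 cortex markers (median log2 -0.82) and 6 of 6 chromaffin markers (-0.74). The part of these differences between the samples in the red cell difference was not tested.

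**Figure D3:**
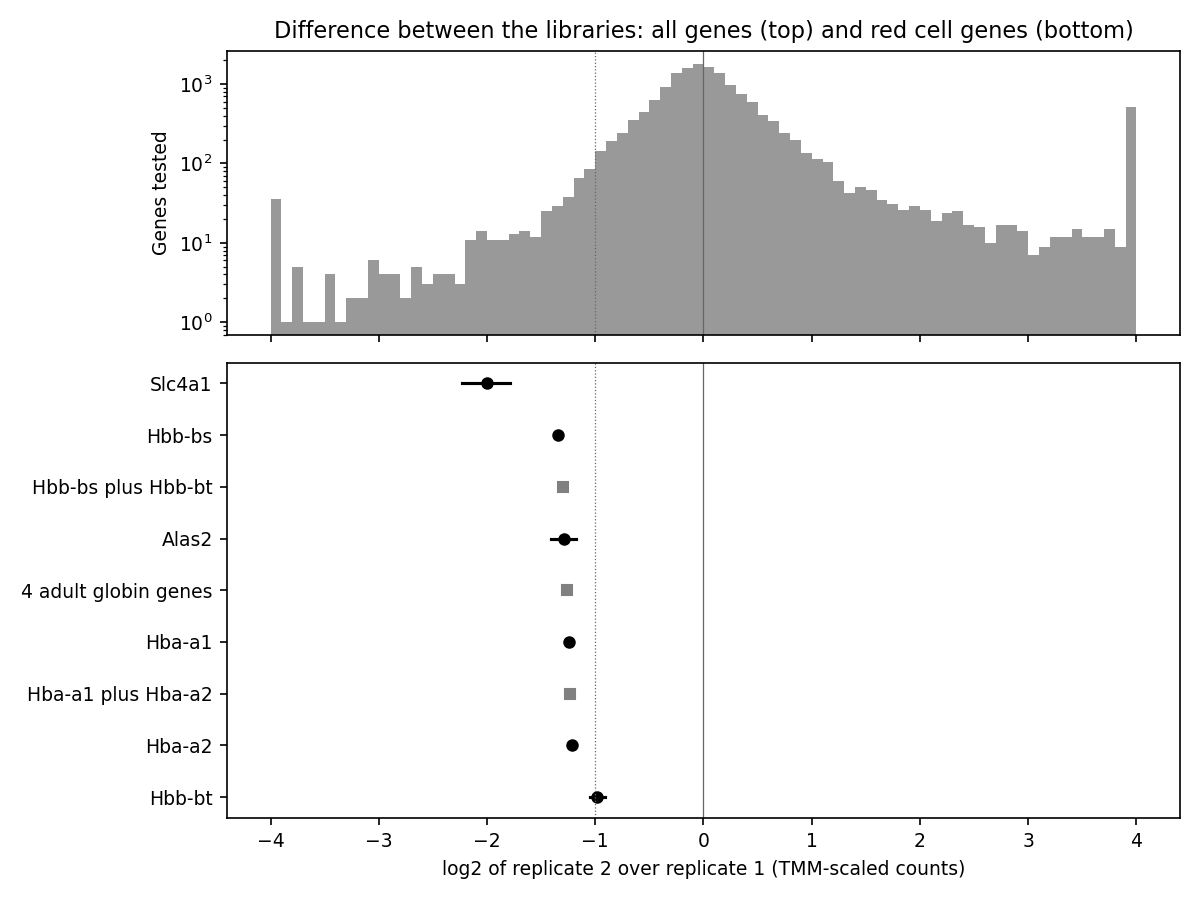
Distribution of the log2 difference, replicate 2 over replicate 1, over all genes tested (top, number of genes on a log axis, values beyond 4 in either direction placed in the end bars), and the same difference for the 6 detected members and 3 sums of them (bottom, circles for genes and squares for sums, with 95% counting intervals). The dotted line marks a 2-fold lower level. The members lie between -2.00 and -0.98, and Slc4a1 lies lowest.

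The members did not all differ by the same amount. The difference of Slc4a1 was 1.68 times that of the adult globins together as a fold (95% interval 1.44 to 1.95) and 1.64 times that of Alas2 (1.38 to 1.94), both outside counting error. The quotient of replicate 2 over replicate 1 was 0.976 times as high for Alas2 as for the globins, with an interval of 0.903 to 1.06 that includes 1. That quotient was 1.28 times as high for Hbb-bt as for Hbb-bs (1.22 to 1.35) and 1.05 times as high for the alpha pair as for the beta pair (1.02 to 1.07). In the second table the alpha to beta ratio was higher in replicate 2 by counts (1.63 in replicate 2 and 1.56 in replicate 1) but lower by TPM (1.44 in replicate 2 and 1.55 in replicate 1), so the direction of that small difference depends on the table and scale. For Hba-a2 against Hba-a1 the quotient was 1.02 times as high, and the interval of 0.995 to 1.05 included 1. In the second table the log2 differences of Hbb-bt and Hbb-bs were -1.15 and -1.37, closer together than the -0.98 and -1.34 of the gene table. Those of Hba-a2 and Hba-a1 lay further apart there, at -1.08 and -1.30, beside -1.22 and -1.25 in the gene table.

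Other genes of the red cell membrane and its skeleton lay on both sides of 0. Of 18 listed genes 16 were tested, of which 10 were called lower in replicate 2, 3 higher and 3 neither, with a median log2 difference of -0.49. Of all genes tested, 24.6% were called lower and 28.5% higher. Over 2-fold lower were 6 of the 16, against 2.58% of all genes tested, and 4 are described here. Epb42, which anchors band 3 to the skeleton, had 0.330 TPM in replicate 2, against 1.44 TPM in replicate 1 (log2 -2.91). Ermap, a membrane protein of erythroid cells, had 0.130 TPM in replicate 2, against 1.49 TPM in replicate 1 (log2 -2.70).

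Also over 2-fold lower were Rhag, the Rh-associated glycoprotein (log2 -2.04), and Kel, a blood group antigen (-1.57). These 4 genes rested on few reads in replicate 2, between 8 counts for Epb42 and Rhag and 16 for Ermap. Sptb, the beta spectrin, was called lower by less (log2 -0.75), as was Epb41, protein 4.1 of the skeleton (-0.33). The water channel Aqp1, which endothelium and other tissues also make, had 63.6 TPM in replicate 2, against 51.2 TPM in replicate 1 and was called higher (log2 0.73), with Tmod1 (0.78) and Tspan33 (0.87). Not called were Dmtn (0.16), Cd59a (-0.04) and the glucose transporter Slc2a1 (-0.17).

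Red cell enzymes and genes of maturation had calls in both directions. Of 22 listed genes 18 were tested, of which 9 were called lower in replicate 2, 5 higher and 4 neither, with a median log2 difference of -0.14. The 5 called higher are about the share of all genes called higher (28.5%), beside 24.6% of all genes called lower. Hemgn, an erythroid nuclear protein, had 0.130 TPM in replicate 2, against 1.25 TPM in replicate 1 (log2 -2.72). Called lower by less than 2-fold were Slc25a37, the mitochondrial iron importer mitoferrin-1 (log2 -0.89), Bpgm, which makes 2,3-bisphosphoglycerate (-0.80), Mkrn1 (-0.47) and Ube2o (-0.37). Prdx2, an abundant peroxide-removing enzyme of red cells and other cells, had 109 TPM in replicate 2, against 167 TPM in replicate 1 (-0.20).

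By a fold over 2, 3 of the 18 were higher in replicate 2, against 8.33% of all genes tested. They were Pklr, the pyruvate kinase of red cells and liver, at 9.85 TPM in replicate 2, against 0.310 TPM in replicate 1 (log2 4.83), Tfrc, the transferrin receptor of most dividing cells, at 82.2 and 32.2 TPM (1.80), and Cat, catalase, at 195 and 106 TPM (1.20). Liver makes much Cat and Pklr, and the 7 liver markers were higher in replicate 2 by a median log2 of 6.32. Their part in these 3 genes was not tested. Fech, the last enzyme of heme synthesis, was at 41.9 TPM in replicate 2, against 61.7 TPM in replicate 1 and was not called (log2 -0.08). Thus the erythroid first enzyme Alas2 was over 2-fold lower and the ubiquitous last enzyme was not called.

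Transcription factors that define red cell precursors had few counts. Gata1, the master regulator of the lineage, had 6 counts in replicate 2 and 23 in replicate 1. Gfi1b, a transcriptional repressor active in the lineage, had 2 and 9, and neither gene reached a mean count of 20. Klf1, which activates adult beta globin, had 16 counts in replicate 2 and 33 in replicate 1 and was not called (log2 -0.54). Of 12 listed factors 10 were tested, of which 4 were called lower, 3 higher and 3 neither, with a median log2 difference of -0.31, beside 24.6% of all genes called lower and 28.5% higher. Over 2-fold lower were 2 of the 10, against 2.58% of all genes tested. They were Nfe2 (7 counts in replicate 2 and 35 in replicate 1, log2 -1.77) and Ikzf1, a factor that T cells also use (0.830 TPM in replicate 2, against 3.53 TPM in replicate 1, log2 -1.82). Tal1 (log2 -0.51) and Bcl11a (-0.55) were called lower by less than 2-fold. Abundant factors shared with other tissues, such as Ldb1 (-0.12) and Zbtb7a (0.05), were not called, and Sox6 was called higher (0.39).

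**Figure D4:**
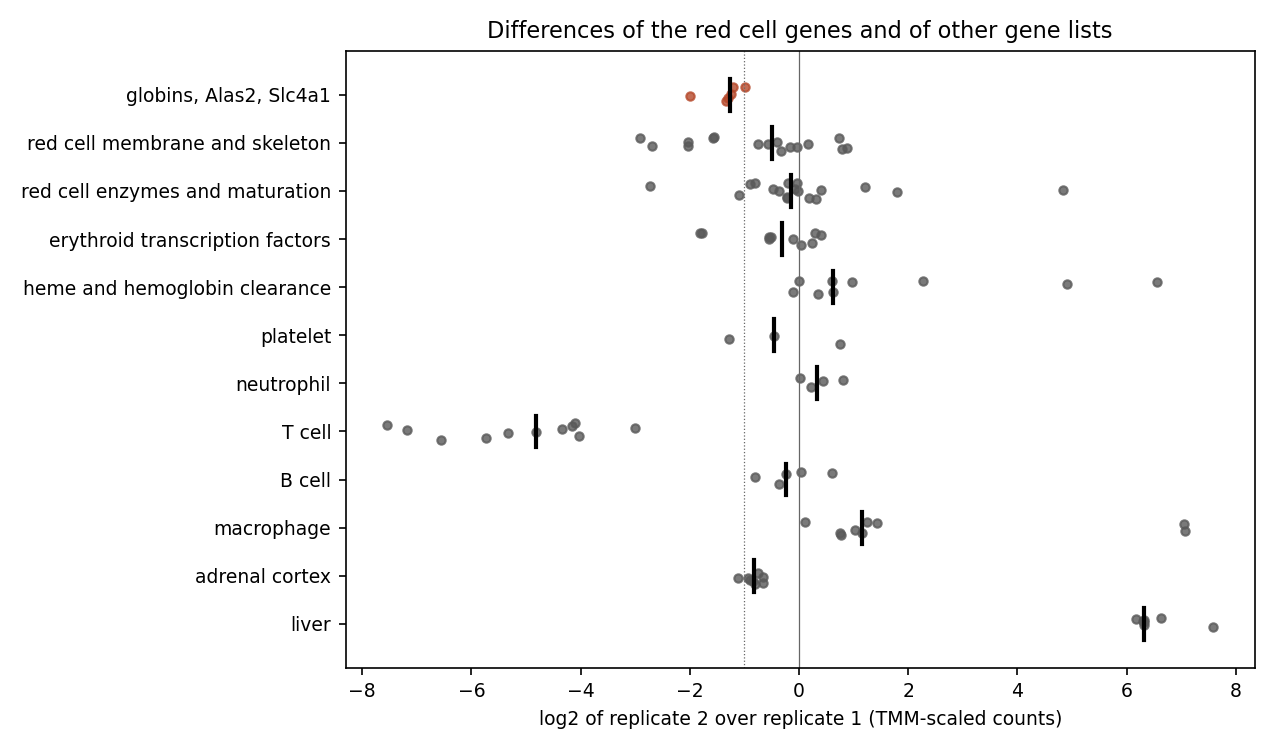
Log2 difference, replicate 2 over replicate 1, of each tested gene (points) in the set of globins, Alas2 and Slc4a1 and in 11 other gene lists, with the median of each as a vertical bar and a dotted line at 2-fold lower. The red cell set has a median of -1.27, T cell genes -4.81, adrenal cortex genes -0.82 and liver genes 6.32, and the 3 broader red cell lists have points on both sides of 0.

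Globins of other cells were higher in replicate 2 or too scarce to test. Mb, the myoglobin of muscle, had 17.6 TPM in replicate 2, against 1.65 TPM in replicate 1 (log2 3.86), in the direction of the 6 skeletal muscle markers, whose median was 5.23 and whose part in it was not tested. Cygb, a globin of fibroblast-like cells, had 7.56 TPM in replicate 2, against 7.43 TPM in replicate 1 (log2 0.44 on TMM-scaled counts, called higher, while its TPM values were nearly equal). Ngb, the neuronal globin, had 9 and 11 counts. The theta-type genes of the alpha cluster were near 0, with 5 counts for Hbq1a in replicate 2 and 0 in replicate 1, and 0 counts for Hbq1b in replicate 2 and 9 in replicate 1. In the second table Hbq1a had 0 counts in both libraries, and Hbq1b had 1 in replicate 2 and 7 in replicate 1. Hbb-bh2, at 0, completes that list of 6.

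Genes that clear hemoglobin and heme were higher or not called in replicate 2. Of 9 tested, 7 were called higher, 0 lower and 2 neither, with a median log2 difference of 0.62, beside 28.5% of all genes called higher and 24.6% lower. The plasma carriers Hpx (hemopexin), at 457 TPM in replicate 2, against 6.50 TPM in replicate 1, and Hp (haptoglobin), at 430 and 19.1 TPM, are made mainly by liver. Liver markers were higher in the same library, and their part in these values was not tested. Slc40a1, the iron exporter ferroportin, had 20.4 TPM in replicate 2, against 5.45 TPM in replicate 1 (log2 2.26), and Cd163, the macrophage receptor for hemoglobin bound to haptoglobin, had 3.60 and 3.10 TPM (0.62). Hmox1, the heme-degrading enzyme that cells raise under heme load, had 7.59 TPM in replicate 2, against 10.8 TPM in replicate 1 and was not called (-0.11).

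Markers of other cells, of blood and of tissues, did not all lie with the red cell genes. Platelet markers summed to 4.72 TPM in replicate 2, against 10.1 TPM in replicate 1, but only 3 of 8 reached a mean count of 20: Ppbp was called lower (log2 -1.29), Pf4 was not called (-0.46) and Itga2b was called higher (0.75). The 8 neutrophil markers summed to 14.3 TPM in replicate 2, against 14.2 TPM in replicate 1, and of 4 tested 0 were called lower, 1 higher (S100a9, 0.80) and 3 neither. The 5 B cell markers summed to 8.16 TPM in replicate 2, against 12.9 TPM in replicate 1, with 1 of the 5 called lower. Over all genes tested, 24.6% were called lower, 28.5% were called higher and 2.58% were over 2-fold lower. T cell markers, counted above among those of other tissues and not as blood alone, were over 2-fold lower in 11 of 11. Their median log2 difference of -4.81 was larger than that of any red cell member. Adrenal cortex markers were called lower in 8 of 8 (median -0.82), all but 1 by less than 2-fold.

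Genes outside the set with a like difference were of several kinds. Within 0.1 of the median log2 difference of the set lay 18 genes whose counts averaged at least 100, members included. The 10 of highest mean TPM among them hold 4 members, Hbb-bs, Hba-a1, Hba-a2 and Alas2. The others included Dhcr7 (cholesterol synthesis, 70.9 TPM in replicate 2, against 252 TPM in replicate 1), Abcb1b (a drug efflux pump), Nr4a1 (an immediate early transcription factor), Emb and the processed pseudogene Gm7334. This likeness rests on 2 libraries.

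The non-globin neighbours of the alpha cluster lay nearer to 0 than its adult genes. Nprl3, whose introns hold the main enhancers of the alpha genes, had 10.3 TPM in replicate 2, against 20.7 TPM in replicate 1 and was called lower by less than 2-fold (log2 -0.45). Mpg, a DNA repair gene, was at log2 0.30, Rhbdf1 at 0.04, Sh3pxd2b at 0.19 and Ubtd2 at 0.18. Around the beta cluster, the flanking olfactory receptor genes Olfr69, Olfr68, Olfr67, Olfr66 and Olfr64 had 0 counts in both libraries.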

How the data were processed

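Total RNA-seq of 1 group of 2 libraries was analysed. Per the text deposited with the samples, the assembly was mm10 with GENCODE M21. Which tools were used is not given in the sources used. Expected counts and TPM are the authors' values in the gene table and its transcript table, per the file headers. That transcript table also has, per the file headers, the share of its gene's TPM as a percent. Estimated counts and TPM fill the deposited second table. Before testing, expected counts were rounded.

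Log2 differences (replicate 2 over replicate 1, prior count 0.5) follow TMM scaling (edgeR 4.0.16, R 4.3.3). Nuclear genes averaging at least 20 counts were tested with an exact conditional binomial test (two-sided, SciPy 1.17.1), Benjamini-Hochberg adjusted and called under 0.05. A fitted model with replicate spread needs more libraries. Fold intervals are Clopper-Pearson at 95%. The test was tested on simulated counts that held counting error only. Those counts cannot show how the test behaves where libraries also have replicate spread. Members and lists were chosen with earlier results of these data known. The rule for named genes took all members, every gene of lists of up to 8 genes, and the genes of highest level or most extreme difference in longer lists. Of what it allowed, not all genes are reported here, and marker lists of other tissues are mostly given as sums and counts. The like genes are the 10 of highest TPM within 0.1 of the members' median. Brown fat (median log2 0.68), macrophage (1.15) and chromaffin (-0.74) lists served as context. The reference is a single strain, and how reads of the CAST parent mapped was not tested. Alternatives were DESeq2 1.42.0 size factors, spike-in and total scaling, TPM scales, count minimums, rescaled TPM, the second table and each replicate alone.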

Additional observations from a re-analysis of the deposited data

How the results depend on the processing

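The 6 members were lower in replicate 2 under all 6 alternatives each that were run, with log2 differences between -1.69 and -1.25 for Hba-a1, -1.64 and -1.08 for Hba-a2, -1.76 and -1.34 for Hbb-bs, -1.40 and -0.98 for Hbb-bt, -1.64 and -1.27 for Alas2, and -2.34 and -1.71 for Slc4a1. The share of all genes over 2-fold lower was 5.71% with spike-in scaling and 6.81% with total-count scaling, 15.1% with no count minimum and 0.981% at a mean count of at least 100. The share called lower was 52.8%, 58.3% and 14.2% under the first 3 of these. Summed TPM of the 4 adult globins averaged 10560 in the second table and 19900 rescaled to protein-coding genes. The log2 ratio of alpha to beta was 0.58 in the second table and 0.72 by counts. Of 144 alternative values, 106 were labelled the same and 38 moved. None of the log2 differences of the members reversed. Counts and shares were judged by a fixed fold window, which cannot label a reversal. Levels and ratios without 1 replicate could only stay the same, because with 2 libraries each value lies within the SD of their mean. Of the red cell membrane list, 2 genes rather than 6 were over 2-fold lower at a mean count of at least 100. Of the enzyme list it was 4 genes under spike-in or total-count scaling and 1 at that minimum, rather than 2. The cause of these shifts was not tested. No paired analysis was possible because the libraries form 1 group.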
